A study of Rattus norvegicus with 10 samples.

Results

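Major urinary protein genes were taken as the rows of the deposited liver isoform table that lie on the strand of a reference gene and are named Obp3 or Mup followed by a digit. The rule returned 1 gene of 20226, Mup4, with 24 isoforms of 51430, because no row carried the name Obp3. The family total is therefore the Mup4 total. The 24 isoforms comprised 3 reference transcripts and 21 isoforms that the authors' assembler built and that share at least 1 junction with a reference transcript. All 24 lay within 1 assembled locus on the minus strand of chromosome 5 (Rnor_6.0, chr5:77245005-78058916), which held 66 same-strand isoforms under 15 gene names.

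The study sequenced ribosome-depleted total RNA from livers of wild-type Wistar rats. All rats ate a diet with 60% of its calories as fat for 4 weeks, received 35 mg/kg of streptozotocin after a 16 h fast, and had fasting glucose over 16.7 mmol/L when tested 3 days after it. They were then randomised, with matched body weights, to sleeve gastrectomy, which removes most of the stomach (SG, 5 libraries), or to a sham operation (SHAM, 5 libraries). SG livers date from 3 months after the operation, while the labels leave the time of the SHAM livers unsaid, so time and operation cannot be told apart. Age and sex are not among the labels, and no non-diabetic group was analysed here. Whether every library stands for a separate rat is not stated, and p-values measure only the spread among the 10 samples, which may be technical. The livers carried albumin (Alb) at 15517 to 27810 FPKM (fragments per kilobase of transcript, scaled to the library). The Y-linked genes Eif2s3y and Kdm5d, looked up after the table was seen, stood at 7.57 to 11.7 and 4.22 to 7.04 FPKM, so both were detected in all 10 libraries, while Ddx3y, of the same kind, stood at 0 to 0.108 FPKM. Library totals were 77617460 to 92110190 estimated counts in SG and 65824088 to 85520959 in SHAM.

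The rat proteins of this family, also called alpha-2u globulins, are small lipocalins that bind hydrophobic ligands such as pheromones. Hepatocytes secrete them into the blood, from where they pass into urine as part of scent marking. In rat liver the genes are best known as male-predominant, and their transcription depends on pulsed growth hormone, androgen, glucocorticoid, thyroid hormone and insulin. The genes sit side by side as near-identical copies.

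The likeness of the copies can be seen just before their start sites. Of the 7 symbols of the family in the RefSeq promoter table (assembly GRCr8, 250 bases before to 50 after each annotated start), 6 had the box TATAAA within 100 bases before the start, and Mup18 did not. The stretches below run 5′ to 3′ from 100 bases before the box to 20 bases after it, all on the minus strand of chromosome 5 in GRCr8, with the box in capitals. Mup4 is chr5:79759523-79759648, Obp3 is chr5:79640683-79640808, Mup5 is chr5:79999722-79999847, Mup4l1 is chr5:80226536-80226661, Mup4l4 is chr5:79707834-79707959 and Mup4l3 is chr5:80318380-80318505.
Mup4: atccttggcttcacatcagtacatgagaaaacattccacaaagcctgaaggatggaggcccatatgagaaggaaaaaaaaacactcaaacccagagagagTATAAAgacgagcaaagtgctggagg
Obp3: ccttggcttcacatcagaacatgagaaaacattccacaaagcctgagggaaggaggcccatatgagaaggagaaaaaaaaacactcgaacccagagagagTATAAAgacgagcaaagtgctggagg
Mup5: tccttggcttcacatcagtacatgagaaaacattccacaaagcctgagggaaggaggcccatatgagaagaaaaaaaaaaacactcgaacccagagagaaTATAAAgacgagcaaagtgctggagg
Mup4l1: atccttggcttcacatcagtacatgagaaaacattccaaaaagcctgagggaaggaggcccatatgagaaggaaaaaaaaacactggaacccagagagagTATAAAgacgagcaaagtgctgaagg
Mup4l4: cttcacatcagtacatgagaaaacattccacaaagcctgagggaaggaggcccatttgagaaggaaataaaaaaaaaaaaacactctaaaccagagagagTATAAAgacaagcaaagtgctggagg
Mup4l3: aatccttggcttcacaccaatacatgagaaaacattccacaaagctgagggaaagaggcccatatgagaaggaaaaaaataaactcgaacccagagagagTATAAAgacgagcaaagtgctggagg
Over the aligned bases, gaps left out, identity with Mup4 was 96.8% for Obp3, 96.0% for Mup5, 95.2% for Mup4l1, 94.9% for Mup4l4 and 93.6% for Mup4l3. Gap bases, those at the ends included, numbered 4, 2, 0, 16 and 2 in that order. The order depends on leaving them out, as Mup4l4 had 112 bases identical to Mup4 and Mup4l3 had 117. Mup4 and Obp3 thus differ at few positions of this window, although only Mup4 names rows of the liver table.

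Letter patterns, 6 in all, were then searched on both strands of the 300-base promoters, and none of the patterns contains another. TATAAA was in 6 of the 7 family promoters and in 14.2% of all 33469 promoters. TTCNNNGAA, the palindrome bound by STAT factors, was in Mup4l1 alone of the 7, against 8.87% of all promoters. TGTTCT, the core of glucocorticoid receptor sites, was in Mup18 and Obp3, against 20.7% of all promoters. The other 3 patterns were in none of the 7: TTATGTAA of the PAR bZIP factors (0.893% of all promoters), TTGCGCAA of the C/EBP factors (0.170%) and CAAAGTCCA of HNF4 (0.391%).

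The first comparison addressed whether the liver transcripts of this family differed between diabetic rats after sleeve gastrectomy and after the sham operation. The isoforms named Mup4 summed to one of the higher levels among liver genes. Their mean sum was higher in SG than in SHAM, but the libraries of each group were widely scattered. Assembled isoforms carried nearly all of this sum, with at most 2.17% from reference transcripts in a library, so it may hold reads of other copies. Mup4 below stands for this sum. Mup4 stood at 1334.5, 1967.9, 1596.7, 8036.6 and 3078.4 FPKM in SG 1 to SG 5. In SHAM 1 to SHAM 5 it stood at 649.5, 1114.1, 334.1, 574.7 and 1601.6 FPKM. The groups overlapped: 3 SG libraries lay above the highest SHAM library, SHAM 5, and 4 SHAM libraries lay below the lowest SG library, SG 1. SG 4 stood far above SG 5, the next SG library.

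**Figure D1:**
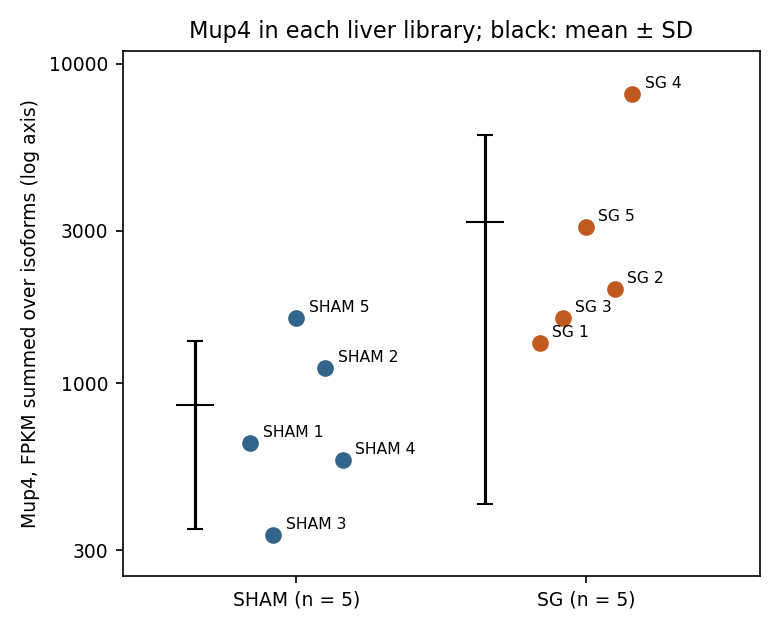
Mup4 level, in FPKM summed over its 24 isoforms, on a log axis for each SHAM and SG library (points), with the group mean and SD in black. The highest SG library, SG 4, sits at 8036.6 FPKM and the lowest SHAM library, SHAM 3, at 334.1, while SHAM 5 lies level with SG 3.

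Mean Mup4 was 3203 ± 2783 FPKM after sleeve gastrectomy and 855 ± 504 FPKM after the sham operation (SD, n = 5 each), a ratio of 3.75, and the ratio of the medians was 3.03. As a share of the library's counts, Mup4 took 0.0402% in SHAM 3 and 0.561% in SG 4. In counts scaled to the library total (CPM) the means were 2490 ± 1810 in SG and 891 ± 523 in SHAM (SD, n = 5 each), a ratio of 2.79. Deposited counts follow FPKM times isoform length, so the FPKM ratio depends more on how reads were split between short and long isoforms. Ranked by FPKM among genes, Mup4 was between the 8th and 44th in SG and between the 39th and 120th in SHAM.

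The edgeR quasi-likelihood test over 11139 genes with a mean of at least 1 FPKM gave Mup4 a log2 fold change of 1.46 ± 0.53 (SE), or 2.75-fold with a 95% interval from 1.22 to 6.21. Its unadjusted p was 0.0194 and its Benjamini-Hochberg adjusted p was 0.991, so the difference did not pass at 0.05. The test called 0 genes in all (0% of those tested), while 505 genes (4.53%) had an unadjusted p under 0.05, 299 of them (2.68%) with higher values in SG. DESeq2 called 18 genes (0.162%), 12 of them (0.108%) higher in SG, and limma on log2(FPKM + 0.5) called 0, Mup4 in neither case, with adjusted p of 0.345 and 0.610. By size of change Mup4 stood high, with 50 genes (0.449%) above its log2 fold change. Without SG 4 the log2 fold change was 0.87, a 1.83-fold difference, with a 95% interval from -0.07 to 1.81, and without SHAM 5 it was 1.83. In bulk liver RNA, fewer cells of a type and less RNA per cell cannot be told apart.

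**Figure D2:**
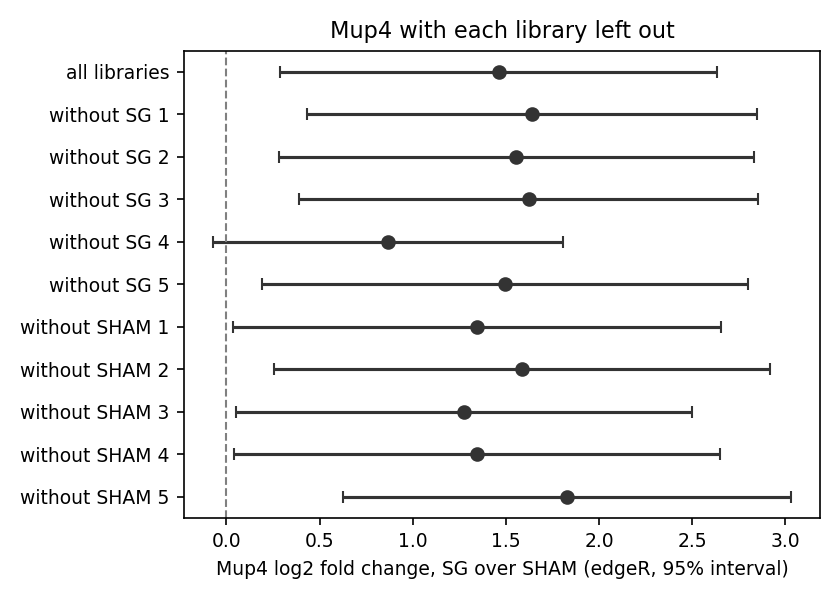
Mup4 log2 fold change, SG over SHAM, from edgeR with all libraries and with each library left out in turn (points), with 95% intervals (bars) and a dashed line at 0. The interval reaches below 0 only without SG 4, where it runs from -0.07 to 1.81.

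Mup4 varied more within groups than most genes. The pooled within-group SD of its log2 CPM was 0.88, against a median of 0.26 over all tested genes, and 5.91% of tested genes had a larger one. Among the 424 genes with a mean of at least 100 FPKM, 47 were more variable. The highest library exceeded the lowest 6.02-fold within SG, 4.79-fold within SHAM and 24.1-fold over all 10.

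The Mup4 level was carried by assembled isoforms, not by the reference transcripts. The 3 reference isoforms together made 0.071% to 2.17% of Mup4 FPKM in a library. Their sum was 17.0, 42.7, 6.75, 24.4 and 7.58 FPKM in SG 1 to SG 5 and 9.89, 7.45, 3.40, 3.39 and 1.14 in SHAM 1 to SHAM 5. On these isoforms alone the log2 fold change was 1.99, with SG 2 in place of SG 4 as the highest library. The assembled isoforms had 4 to 10 exons and were 395 to 1377 nt long, but spanned 28.9 to 728 kb of genome, and 15 of the 21 spanned over 100 kb. Of assembled isoforms outside the locus, 18.03% spanned over 100 kb, with a median span of 32.6 kb. Reads of near-identical copies can be joined or split by an assembler, so the value of any single isoform is uncertain. How much of the total comes from the Mup4 gene itself is uncertain for the same reason.

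No isoform led everywhere. The leading isoform made 19.6% to 42.5% of Mup4 FPKM in a library. The isoform of 612 nt led in SG 2, SG 4 and SHAM 4, that of 806 nt in SHAM 1 and SHAM 2, and others in the rest, and 4 to 7 isoforms made up 80% of a library's level. Of the 24 isoforms, 6 were above 0 in all 10 libraries, 3 were above 1 FPKM in all 10, and 11 were above 1 FPKM in at most 3. Judged by that level of 1 FPKM, 4 isoforms were in SG libraries only and 1 in SHAM only, and 23 had a mean of at least 1 FPKM. The same count was not made over all isoforms, and a fixed level is passed more easily where the Mup4 total is higher. These counts are therefore a description and not a group difference.

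The isoform with the highest mean, of 6 exons and 612 nt (chr5:77314669-78042611), made 16.0% of mean Mup4 FPKM. It stood at 514 FPKM in SG 2 and 2437 in SG 4 but at 0 to 5.74 in the other 3 SG libraries, and at 177 in SHAM 4 and 99.3 in SHAM 5 but at 0 to 2.22 in the other SHAM libraries. Its presence thus crossed the groups.

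The next isoforms were steadier. An isoform of 9 exons and 1033 nt (chr5:77245206-77433850) stood at 110, 236, 108, 503 and 228 FPKM in SG 1 to SG 5. In SHAM 1 to SHAM 5 it stood at 93.2, 135, 39.3, 47.5 and 200.1 FPKM. It gave a log2 fold change of 1.16 ± 0.56 (SE), with SG 4 highest and SHAM 2 and SHAM 5 within the range of SG. An isoform of 4 exons and 475 nt (chr5:77315162-77408416) stood at 130, 40.5, 107, 552 and 308 FPKM in SG 1 to SG 5 and at 111, 104, 31.3, 46.7 and 212 in SHAM 1 to SHAM 5. Its log2 fold change was 1.12 ± 0.72 (SE), or 0.44 without SG 4, and its lowest SG library, SG 2, lay below 4 SHAM libraries.

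Several isoforms were found in few libraries. The isoforms of 4 exons and 395 nt (chr5:77406686-77903062) and of 4 exons and 415 nt (chr5:77406686-77568837) were above 0 only in SG 3, at 438 and 276 FPKM, and SG 4, at 974 and 529. An isoform of 4 exons and 417 nt reached 758 FPKM in SG 4 and was listed at 0 elsewhere. An isoform of 7 exons and 663 nt stood at 56.4 FPKM in SG 1 and 1145 in SG 5. The isoforms of 8 exons and 809 nt (567, 640 and 191 FPKM) and of 6 exons and 622 nt (167, 447 and 148 FPKM) were both above 1 FPKM in SG 1, SG 5 and SHAM 5 only. An isoform of 7 exons and 896 nt was in SHAM 5 alone, at 52.9 FPKM. These sets split the SG libraries, with SG 1 and SG 5 sharing one set and SG 3 and SG 4 another.

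**Figure D3:**
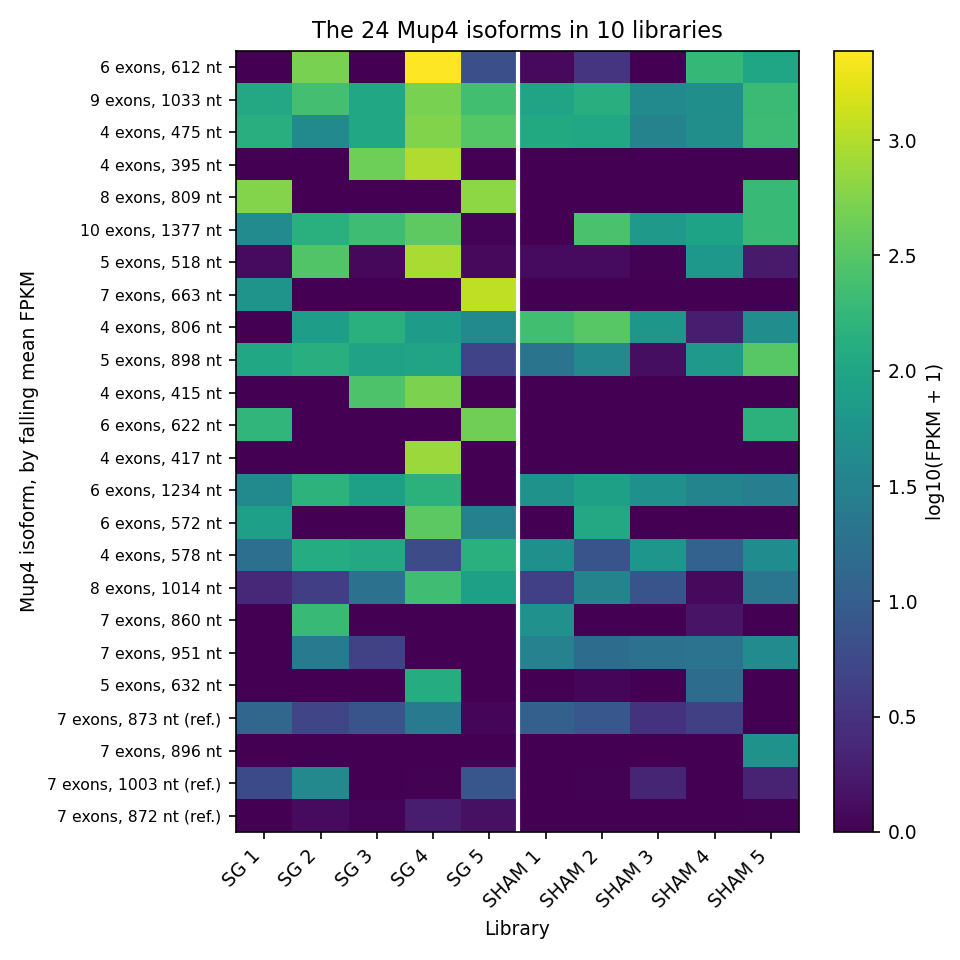
The 24 Mup4 isoforms (rows, by falling mean FPKM, with exons and length in nt; ref. marks the 3 reference transcripts) in the 10 libraries (columns), coloured by log10(FPKM + 1). Most rows are dark in several libraries, while the isoforms of 1033 nt and 475 nt are bright in all 10.

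Of the 24 isoforms, 14 were above 0 in at least 5 libraries and entered the isoform test, where 11 had positive and 3 had negative log2 fold changes. Over all 39559 isoforms tested, 49.2% had positive ones. The 14 are parts of the same Mup4 total with reads split among them by estimate, so their directions are not independent of it or of each other. None of the 14 passed the adjusted threshold (edgeR called 0 of all isoforms, 0%, and limma 3), and 1 had an unadjusted p under 0.05 with higher values in SG, against 2.16% of all isoforms. With lower values in SG, 0 of the 14 did, against 1.96% of all isoforms. The isoform with the unadjusted p under 0.05 was the reference transcript of 7 exons and 872 nt (chr5:77404914-77408363), at 0.80 FPKM or less in each library, with a log2 fold change of 4.21 (3.46 without SG 4) and an unadjusted edgeR p of 0.00937. The negative ones were the isoforms of 951 nt (-2.22 ± 1.93 SE), 806 nt (-0.96 ± 1.56) and 898 nt (-0.12 ± 1.28). These were -4.87 without SG 2, -0.33 without SHAM 2 and 1.45 without SHAM 5, in that order. For 0 of the 14 did all SG libraries lie above all SHAM libraries, against 0.69% of isoforms.

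Short isoforms made a larger part of Mup4 in most SG libraries than in most SHAM libraries. The 11 isoforms under 700 nt made 33.7%, 49.1%, 58.2%, 82.5% and 67.4% of Mup4 FPKM in SG 1 to SG 5 and 24.7%, 20.1%, 27.0%, 54.5% and 31.5% in SHAM 1 to SHAM 5. SHAM 4 lay above SG 1 and SG 2 in this share. The mean isoform length, weighted by FPKM, was 788, 810, 711, 621 and 704 nt in SG and 816, 952, 950, 829 and 860 nt in SHAM. Every SG library was thus shorter by this measure than every SHAM library, a comparison chosen after the values were seen and not tested. The gap was narrow, with SG 2 at 810 nt and SHAM 1 at 816 nt. How often other genes separate in this way was not computed, and the lengths rest on uncertain splits of reads among isoforms. The separation is therefore a description.

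The makeup of Mup4 was compared between libraries by the share of FPKM that 2 libraries placed on the same isoforms. Over the 45 pairs of libraries the median was 39.1%, with 16.0% between SG 2 and SG 5 at the low end and 71.2% between SHAM 2 and SHAM 3 at the high end. The median was 26.2% within SG, 44.7% within SHAM and 38.4% between the groups. Pairs of SG libraries thus had a lower median than pairs across the groups, which was not tested.

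A further 20 rows named Mup4 lay on the opposite strand (18) or within introns (2) and fell outside the rule. They summed to 10.3 to 69.1 FPKM, or 0.66% to 8.21% of the level of the members, with a mean of 39.7 ± 21.6 FPKM over SG and of 25.6 ± 10.2 FPKM over SHAM (SD, n = 5 each). No label used here states whether the kit keeps strand, so sense and antisense reads cannot be told apart with certainty.

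The other names of the assembled locus, which fall outside the rule, were described next because reads could be placed on them instead of Mup4. Only some of them are described as members of this family, and others, such as AABR07048463, carry no description. Of these 14 names, 9 had a mean of at least 1 FPKM, and Mup4 made 22.5% to 46.5% of the locus. The whole locus stood at 3419, 6028, 3435, 21705 and 8891 FPKM in SG 1 to SG 5 and at 2893, 3412, 980, 1427 and 5912 in SHAM 1 to SHAM 5. SG 4 and SG 5 were the 2 highest and SHAM 3 the lowest, but SHAM 5 lay above SG 1 and SG 3. In a fit with genes defined by assembled locus, the locus had a log2 fold change of 1.39 ± 0.55 (SE), or 2.61-fold with a 95% interval from 1.13 to 6.03. Its unadjusted edgeR p of 0.0283 and adjusted p of 0.994 did not pass, among 311 of 11284 such genes (2.76%) with higher values in SG and an unadjusted p under 0.05.

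**Figure D4:**
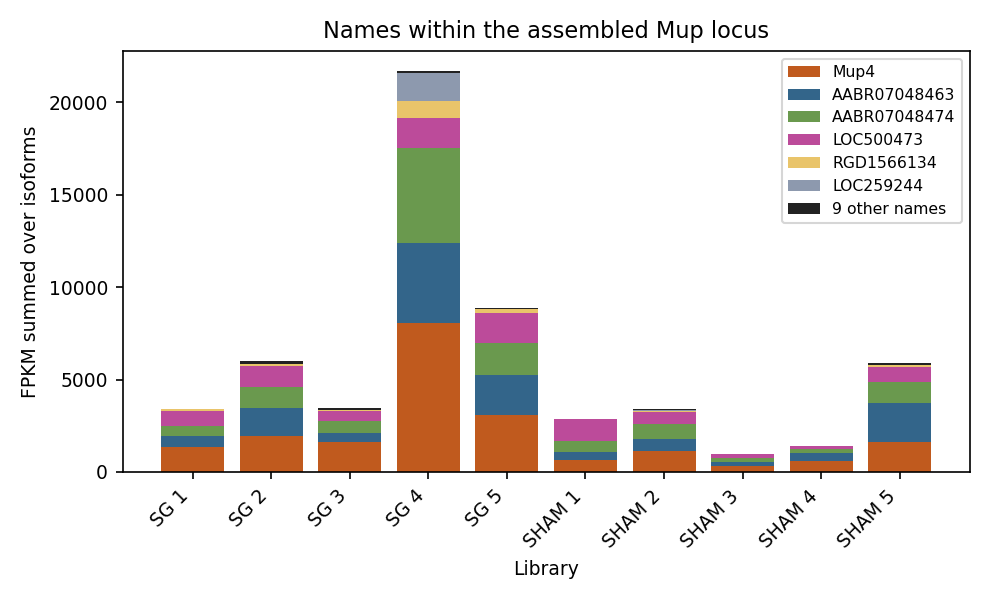
FPKM of the assembled locus in each library, stacked by gene name, with Mup4 at the foot of each bar. The bar of SG 4 reaches 21705 FPKM and that of SHAM 3 980, and 4 names make up most of every bar.

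Next to Mup4, the most abundant names were AABR07048463, AABR07048474, which the table describes as Mup5, and LOC500473, which RefSeq calls Mup18. AABR07048474 stood at 585, 1128, 618, 5145 and 1701 FPKM in SG 1 to SG 5 and at 608, 792, 170, 203 and 1133 in SHAM 1 to SHAM 5. Its log2 fold change was 1.33 ± 0.51 (SE), and SG 1, SG 2 and SG 3 lay within the range of SHAM. AABR07048463 had a log2 fold change of 1.21 ± 0.70. Leaving out SG 4 gave 0.48 and leaving out SHAM 5 gave 2.004. It reached 2118 FPKM in SHAM 5, while SHAM 1 to SHAM 4 held 226 to 690. LOC500473 had one of 0.93 ± 0.46, with SHAM 1, at 1151 FPKM, above 2 SG libraries.

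RGD1566134, which RefSeq calls Mup4l1, stood at 90.9 to 942 FPKM in SG and at 0.12 to 85.0 in SHAM, so that all 5 SG libraries lay above all 5 SHAM libraries. Such a separation was seen in 1.31% of tested genes. Its log2 fold change of 3.31 ± 1.53 (SE) had an unadjusted edgeR p of 0.054, and was 1.89 without SG 4 and 4.10 without SHAM 5. LOC259244, which RefSeq calls Mup4l4, reached 1486 FPKM in SG 4, with 25.2 in SHAM 2, 3.02 in SG 2 and 0 in the other 7 libraries. AABR07048419, with 1 isoform in the locus, stood there at 0.01 to 9.36 FPKM in SG and 0 to 0.21 in SHAM. No fold is given for it, because the gene-level fit under that name also counts an isoform outside the locus. The fits of AABR07048463 and AABR07048474 do so too, with little change in level. In SHAM 5 these names stood at 2117.67 and 1133 FPKM in all, against 2117.61 and 1132.7 within the locus. AABR07048439 (0.77, but 1.78 without SHAM 5), AABR07048487 (0.70) and AABR07048475 (0.19, but 0.97 without SHAM 2 and -0.29 without SG 3) had positive log2 fold changes over all libraries. None of the 9 tested names passed the adjusted threshold.

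Hormone pathways known to act on these genes were read from lists for growth hormone signalling, male-biased and female-biased liver genes and other secreted lipocalins. Of 14 tested growth hormone genes, 12 had positive and 2 negative values, with a median log2 fold change of 0.21, and 0 passed, beside 47.4% positive and a median of -0.01 over all tested genes. Ghr, the growth hormone receptor, stood at 64.4 to 96.9 FPKM in SG (median 75.1) and 46.7 to 72.0 in SHAM (median 54.8), with a log2 fold change of 0.26 ± 0.25 (SE). Stat5b, the transcription factor downstream of it, had one of 0.20 ± 0.27, but -0.17 by limma on log2(FPKM + 0.5). Igf1, the main endocrine target, had 0.23 ± 0.26. The feedback inhibitors Cish (0.88 ± 0.99) and Socs2 (0.19 ± 0.83) were scattered, and stood at 0.16 and -0.83 without SG 2.

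The male-biased genes had a mixed direction, with 1 positive and 3 negative values of 4 tested (median -0.16) and 0 passing. The direction of Cyp2c13 depended on the measure. Its log2 fold change was -0.28 ± 0.38 (SE), but its mean FPKM was 296 in SG and 220 in SHAM. Cyp3a18 (-0.09 ± 0.34) had means of 501 and 503 FPKM. Cyp2c11, the main male-specific steroid hydroxylase, stood at 163 to 551 FPKM in SG and 169 to 615 in SHAM, with a log2 fold change of -0.22 ± 0.44, which was 0.07 without SHAM 5. Hsd3b5, a male-specific hydroxysteroid dehydrogenase, alone among the tested genes of these lists passed 0.05 before adjustment in edgeR (unadjusted p = 0.0148, adjusted p = 0.991). It stood at 80.5, 137, 72.8, 51.8 and 74.7 FPKM in SG 1 to SG 5 and at 46.7, 44.0, 41.2, 38.0 and 58.5 in SHAM 1 to SHAM 5, a log2 fold change of 0.56 ± 0.19, and -0.03 on reference isoforms only. SG 4, the highest library in Mup4, was the lowest SG library in Hsd3b5.

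Of 3 tested female-biased genes 1 had a positive and 2 a negative value (median -0.58), and 0 passed. Cyp2c12, the female-specific counterpart of Cyp2c11, stood at 20.1 FPKM in SHAM 4, 10.2 in SG 5, 6.404 in SG 1 and 0 to 1.17 in the other 7 libraries. Of 6 tested secreted lipocalins 4 had positive and 2 negative values (median 0.08), and 0 passed. The retinol carrier Rbp4 stood at 1808 to 3155 FPKM in SG and 2310.5 to 2667 in SHAM (-0.09 ± 0.16 on the log2 scale). Ambp, which gives alpha-1-microglobulin, had a log2 fold change of 0.20 ± 0.16, and Orm1, an acute-phase lipocalin, one of 0.35 ± 0.25. The highest library exceeded the lowest 1.75-fold in Rbp4 and 1.66-fold in Ambp.

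Across the 10 libraries, log2 Mup4 CPM were set against other genes and library size. The p-values were adjusted over 8 relations, of which 7 are reported. With Cyp2c11, Pearson's r was 0.34 (permutation p = 0.343), Spearman's rho 0.42 (p = 0.231), and r without SHAM 5 and SG 1 was 0.35. With Socs2, r was -0.44 (permutation p = 0.202), rho -0.41 (p = 0.247), and r without SG 2 and SHAM 5 was -0.69. Neither relation passed. With library size, r was 0.48 (permutation p = 0.164), rho 0.54 (p = 0.112), and r without SHAM 2 and SHAM 1 was 0.59. With Igf1, r was 0.33 (permutation p = 0.362), rho 0.38 (p = 0.280), and r without SHAM 5 and SHAM 3 was 0.18. These relations did not pass either. With Cish, r was -0.21 (permutation p = 0.551), rho -0.08 (p = 0.840), and r without SHAM 1 and SG 2 was -0.60. With Dbp, a clock output factor, r was -0.39 (permutation p = 0.271), rho -0.44 (p = 0.203), and r without SHAM 2 and SG 3 was -0.61. With Alb, r was 0.29 (permutation p = 0.412), rho 0.09 (p = 0.813), and r without SG 2 and SHAM 3 was 0.16. With each group centred on its mean, r was 0.64 for Cyp2c11, 0.14 for Igf1, -0.47 for Cish, -0.67 for Socs2, -0.39 for Dbp, 0.08 for Alb and 0.14 for library size. Each of the 7 kept its sign in these settings. None of the 7 passed, with adjusted p of 0.551 for r with Cish and 0.471 for r in the other 6, and 0.374 to 0.840 for rho.

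The 5 tested genes most like Mup4 by Pearson's r of log2 CPM over the 10 libraries included 3 names of the locus, AABR07048474 (0.97), AABR07048463 (0.95) and RGD1566134 (0.91). Names of the same locus can share reads, and the libraries share their depth. The other two were AABR07047899, an unnamed gene elsewhere on chromosome 5 (chr5:52651011-52767592; r = 0.93), and the lipoprotein-bound esterase gene Pon1 on chromosome 4 (r = 0.91). AABR07047899 stood at 76.1, 135, 74.1, 354 and 129 FPKM in SG 1 to SG 5 and at 70.0, 77.5, 20.9, 18.6 and 103 in SHAM 1 to SHAM 5. Like Mup4 it was highest in SG 4, and its lowest libraries were SHAM 3 and SHAM 4. Pon1 varied less, at 342 to 518 FPKM in SG and 270.3 to 367 in SHAM. With each group centred on its mean, r with Mup4 was 0.89 for AABR07047899 and 0.83 for Pon1.

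Markers of the cells of a liver sample were read beside these values. Markers of hepatocytes, which make Mup4, had 3 positive and 4 negative values of 7 tested (median log2 fold change -0.05), and summed to 36372 to 48251 FPKM in SG and 31750 to 44086 in SHAM. Macrophage and Kupffer cell markers had 2 positive and 8 negative of 10 (279 to 599 FPKM in SG, 238 to 619 in SHAM), and were highest in SG 2 and SHAM 5. Stellate cell and fibroblast markers had 6 positive and 1 negative of 7 (32.3 to 91.6 FPKM in SG, 23.8 to 50.8 in SHAM). Their sum was highest in SG 2, and the other SG libraries, at 32.3 to 44.0 FPKM, lay within the range of SHAM. Over all tested genes, 47.4% had positive values. Endothelial markers had 3 positive and 2 negative of 5 (47.2 to 66.3 and 35.4 to 71.9 FPKM), B and plasma cell markers 1 positive of 1 (20.2 to 66.4 and 6.03 to 25.2) and red blood cell markers 3 negative of 3 (25.0 to 94.8 and 45.9 to 224). None passed the adjusted threshold, and no marker present in the table was at 0 in all libraries. Clock output genes had 2 positive and 7 negative of 9, with 0 passing, and their sum ranged from 34.7 to 203 FPKM in SHAM and 46.4 to 201 in SG. Without SG 2 and SHAM 5, a pair chosen after the data were seen, the Mup4 log2 fold change was 1.92. SHAM 5 was also the highest SHAM library in Mup4, and leaving it out alone gave 1.83, so this fit does not test cell makeup. The part of other cells and of the hour of sampling in the Mup4 difference was not tested.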

How the data were processed

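Paired-end reads of ribosome-depleted liver RNA were sequenced for 10 samples, which were grouped by their labels (5 SG, 5 SHAM). HISAT2 2.0.4, StringTie 1.3.4, cutadapt 1.9, FastQC 0.10.1 and the build Rnor_6.0 are those of the submitters' processing notes. For each of 51430 isoforms the authors deposited an FPKM value and an estimated count in every library, per the file headers. The deposited estimated counts were proportional to FPKM times length within 2% for 100% of isoforms with at least 100 counts, so count models rest on estimates. In assembled loci reads of near-identical copies are shared by estimate.

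Gene values were sums, by gene name, over isoforms matching, contained in, sharing a junction with or overlapping a reference gene on its strand. Genes entered at a mean of 1 FPKM or more (11139), and isoforms at a mean of 0.1 FPKM or more if 5 or more libraries were above 0 (39559). The two-sided edgeR quasi-likelihood test (edgeR 4.0.16, R 4.3.3, TMM scaling) used Benjamini-Hochberg adjustment over all features, threshold 0.05. It was also run on simulated counts with known changes, and as its recovery of them is not given, that run says nothing here about power. Alternatives were DESeq2 1.42.0, limma 3.58.1 on log2(FPKM + 0.5) or log2(FPKM + 0.1), other scalings, no filter, reference isoforms only, a replicate block and each library left out. Chosen after the data were seen were the fit by assembled locus and the fit without SG 2 and SHAM 5. Relations used 100000 permutations, two-sided.

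Named features were the member gene, its isoforms with a mean of 1 FPKM or more, other names of the locus, the genes of 4 lists (counts, with examples) and the 5 genes most like Mup4. The isoform of 872 nt, below that mean, was named after its values were seen. The members and lists were chosen with earlier results of these data known. RefSeq symbols and promoters are of GRCr8, used for names and sequence only. Obp3, Nr3c1, Cyp3a2, Cyp2a2, Ca3, Cyp2a1, Sult2a1, Sult2a6, Pecam1, Cd79a and Hba-a1 had no same-strand row under that name and were not analysed here. Items withheld for evaluation are not reported here.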

Additional observations from a re-analysis of the deposited data

Results flagged for a closer look

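A group of 5 libraries was marked where the gap between its highest or lowest library and the next took more of the group's range than Dixon's 95% critical value for 5 samples. Of 62 group checks 13 were marked. Chance marks about 1 in 20 only for normally distributed values, and the checks used values that were not log-transformed. Where only 1 library of a group is above 0, as SHAM 2 in LOC259244 and AABR07048419, a mark is certain. The number of marks is thus not an excess over a known rate, and the marks are a description. Many checks share libraries or reads, so they are not independent.

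SG 4 stood apart in Mup4, at 8036.63 FPKM and 5610.44 CPM (counts scaled to the library total). It also stood apart in AABR07048474 (5145.3 FPKM), in RGD1566134 (942.167 FPKM) and in LOC259244 (1485.79 FPKM). In the whole assembled locus (15890.4 CPM) and in the locus outside Mup4 (10280 CPM), SG 4 was marked in CPM but not in FPKM. SHAM 5 stood apart in AABR07048463 at 2117.61 FPKM. SHAM 2 stood apart in LOC259244 at 25.2321 FPKM and in AABR07048419 at 0.2148 FPKM, where the other SHAM libraries were listed at 0. Outside the locus, SG 2 stood apart in Socs2 at 21.7043 FPKM, SHAM 1 in Igf1 at 42.6679 FPKM and SHAM 4 in Cyp2c12 at 20.1038 FPKM.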

How the results depend on the processing

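The Mup4 log2 fold change was positive in every fit run, from 0.87 (without SG 4) to 1.83 (without SHAM 5) with each library left out, and passed in none. The log2 ratio of mean Mup4 FPKM was 1.91, and from 1.22 to 2.26 with each library left out. Replicate numbers did not pair the libraries (r of same-numbered deviations from -0.22 to 0.14), only SG 5 correlated best with its own number, and the replicate block gave Mup4 1.36, with 0 genes called. Genes called numbered 0 by edgeR, 18 by DESeq2, 1 without SG 2 and SHAM 5, and 0 to 1 with each library left out (1 without SG 5 or SHAM 1). Isoforms called numbered 0 by edgeR, 3 by limma and 0 to 6 with each library left out (2 without SG 2 or SG 3, 6 without SHAM 1, 1 without SHAM 5). Signs turned as follows, on the log2 scale, and the cause was not tested. Cyp2c13 and Cyp3a18 are not covered by this account. On reference isoforms only, AABR07048463 stood at -0.26, AABR07048474 at -0.32 and Hsd3b5 at -0.028. By limma, Stat5b stood at -0.17 and -0.19, Cyp2c12 at 0.18 and 0.11, and the isoforms of 1234 nt and 898 nt at -0.95 and 1.24. With the replicate block Cyp2c12 stood at 0.55. Without SG 2 and SHAM 5, Socs2 stood at -1.10, Cish at -0.11, Igf1 at -0.0081 and Rbp4 at 0.043. With each library left out, LOC259244 ranged from -2.70 (without SG 4) to 17.57, AABR07048475 from -0.29 to 0.97, Socs2 from -0.83 to 0.68, Cyp2c11 from -0.48 to 0.066, Cyp2c12 from -1.57 to 3.14 (without SHAM 4), Rbp4 from -0.15 to 0.0079, the isoform of 1377 nt from -0.32 to 0.68 and that of 898 nt from -0.44 to 1.45. In all, 587 alternative values were marked as the same, 28 as reversed and 9 counts as moved. For fold changes and r, the same meant an equal direction and side of the threshold. As no main value passed, that side was always not passing, and a missing adjusted p was taken as not passing. For counts of called features it meant a similar number. For the ratio of means it meant an equal direction and a shift smaller than the pooled within-group SD. Isoform values rest on estimated shares of reads among near-identical copies, which depth alone does not settle.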

Other observations

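Outside the assembled locus, 3 further genes followed AABR07047899 and Pon1 in likeness to Mup4 over the 10 libraries, by Pearson's r of log2 CPM. These were Tex2 (r = 0.86, chromosome 10), the vitamin D binding protein gene Gc (r = 0.86, chromosome 14) and Arvcf, a catenin family gene (r = 0.86, chromosome 11). Gc stood at 2374, 3684, 2632, 3650.4 and 3229 FPKM in SG 1 to SG 5 and at 2319, 2381, 1493, 2265 and 2587 in SHAM 1 to SHAM 5. Tex2 stood at 13.5 to 18.6 FPKM in SG and 10.9 to 14.1 in SHAM, and Arvcf at 4.90 to 7.02 and 3.65 to 5.85. These genes were picked for their likeness to Mup4 out of all tested genes, so the values are a description.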
